A study of Mus musculus with 8 samples.

Results

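The ubiquitin-specific proteases are the largest family of deubiquitinating enzymes, and their RNA was followed here in mouse heart after digoxin. The genes were chosen by symbol alone, Usp followed by a number and optional letters, without Usp18, which gave 55 of the 22180 genes measured. They lie on 60 probe sets that the platform annotation gives to exactly 1 symbol, and 4 of them (Usp12, Usp43, Usp46 and Usp50) have more than 1 probe set. No member of 55 passed limma's test, against 1.36% of all genes (0.947% called higher and 0.415% lower). The family was proposed with the digoxin and vehicle differences of these arrays in view, so every value of that contrast is a description and supports nothing about the family. The rule has no threshold on a measured value.

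Hearts came from wild-type male C57BL6/J mice, labelled C57BL6JRj, aged 8 to 10 weeks, which received 1 intraperitoneal injection at ZT5 and were killed at ZT9, where ZT0 is lights-on. Digoxin at 1 mg/kg was given to 5 mice, and 3 received vehicle, the solvent mix of ethanol, propylene glycol, citric acid and sodium phosphate. Digoxin is a cardiac glycoside that inhibits the Na/K-ATPase, and the rodent form of its main cardiac subunit is known to bind such drugs weakly. RNA of the whole heart was measured on Affymetrix Mouse Gene 2.0 ST arrays, taken as 1 heart each, and the log2 values are relative to a constant of each probe set. They therefore show differences between arrays and no level, so neither the cell type of the tissue nor the order of abundance of the Usp genes can be read from them. In whole tissue, fewer cells of a type and less RNA per cell cannot be told apart.

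Deubiquitinases remove ubiquitin from proteins and so can spare them from the proteasome or change where they act. Most Usp enzymes are cysteine proteases built on the same catalytic fold, and they differ in their other domains and in their substrates. In heart and skeletal muscle the ubiquitin system is known for the turnover of sarcomere proteins and for signalling under load. Usp2 is known as a rhythmic gene of many tissues whose enzyme acts on clock proteins, on MDM2 and on cyclin D1. The symbol rule also takes in Usp6nl, which encodes a GTPase-activating protein and not a protease, and 5 Usp17l genes, near-identical copies of an immediate early protease whose probe sets may share RNA. Usp39, Usp50, Usp53 and Usp54 belong to the family by sequence. The list used here placed them under no or impaired protease activity, an annotation that RNA values cannot check.

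The differences across the family were small. Fitted levels after digoxin lay between 0.854 times (Usp17la) and 1.25 times (Usp54) the vehicle level, and 31 of 55 members were within 0.1 of 0 on the log2 scale. Small changes were no trait of the family. The quartiles of the log2 change were -0.013 and 0.125 over the members and -0.072 and 0.056 over all genes. The median log2 change, digoxin minus vehicle, was 0.056 over the 55 members and -0.011 over all 22180 genes. The mean was higher after digoxin in 39 members and lower in 16, while it was higher in 44.4% of all genes. At an unadjusted p under 0.05 in limma there were 7 members with higher and 2 with lower means, against 6.32% and 5.99% of all genes. The arrays of the groups did not overlap in 3 members, Usp2, Usp54 and Usp7, all with digoxin above vehicle (4.4% of all genes), and in 0 members with digoxin below (3.76% of all genes; 8.16% in either direction). The lowest adjusted p of any member was 0.213, for Usp54. The 95% intervals had a median width of 0.35, and 52 of the 55 lay wholly within 0.5 of 0, so changes much beyond this size were outside the intervals of most members. Because the values give no level, probe sets that carried only background could not be set apart. Such probe sets could also show small differences and narrow intervals.

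**Figure D1:**
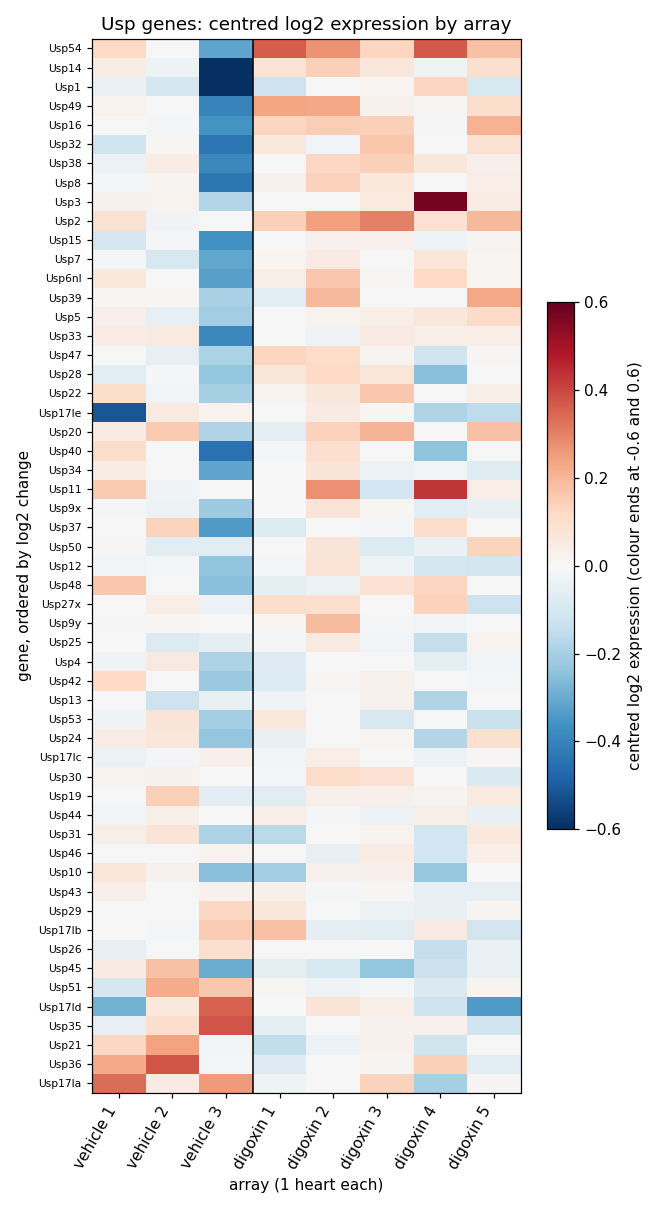
Centred log2 expression of the 55 Usp genes (rows, ordered by log2 change from highest to lowest) on the 3 vehicle and 5 digoxin arrays (columns), with red above and blue below the reference of each probe set. The column of vehicle replicate 3 is blue in most rows, with a median of -0.19.

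Much of what separated the groups lay on 1 vehicle array. On vehicle replicate 3 the median of the 55 members was -0.19, while it lay between -0.012 and 0.030 on the other 7 arrays. The median of all genes on that array was 0.0032. It held the lowest of the 8 values in 32 of 55 members, against 25.7% of all genes, and the highest in 4 members, against 28.8% of all genes. This array also had the widest spread over all probe sets, with an interquartile range of 0.216 against 0.0792 to 0.115 on the others. Each array was left out in turn, and the fit without this one was singled out once these values were known. It keeps only vehicle replicates 1 and 2 in the vehicle group. Without vehicle replicate 3 the log2 change became lower in 43 members and higher in 12. The median over members was then 0.013 (-0.0029 over all genes), 30 members had a higher mean after digoxin (48.2% of all genes), and at an unadjusted p under 0.05 there were 2 members with higher and 3 with lower means (5.28% and 7.33% of all genes). The groups then did not overlap in 3 members with digoxin above vehicle and 3 with digoxin below (7.24% and 9.16% of all genes). No member passed limma's adjusted test without that array, against 1.69% of all genes.

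**Figure D2:**
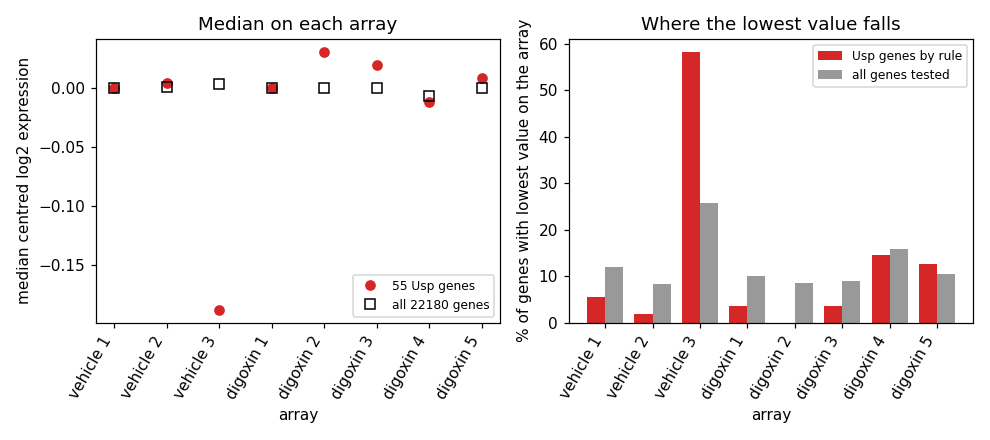
Left, the median centred log2 expression of the 55 Usp genes (red circles) and of all 22180 genes (open squares) on each array. Right, the percentage of Usp genes (red bars) and of all genes (grey bars) whose lowest value of 8 falls on each array, which is 58.2% of Usp genes for vehicle replicate 3.

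Among vehicle arrays, the macrophage, endothelial, fibroblast and atrial marker means were lowest on vehicle replicate 3, and the cardiomyocyte mean was not. The part of the markers in the Usp values was not tested. The mean of 6 macrophage genes was -0.25 on vehicle replicate 3 and 0.14 and 0.21 on the other vehicle arrays, and that of 6 endothelial genes was -0.24 against 0.039 and 0.021. In digoxin hearts the macrophage mean lay between -0.12 and 0.26 and the endothelial mean between -0.14 and -0.029. The mean of 7 cardiomyocyte genes was 0.028 on vehicle replicate 3 and lay between -0.057 and 0.049 over all arrays. The mean of 7 atrial genes ranged from 0.34 to 2.24 in vehicle hearts and from -0.44 to 1.74 in digoxin hearts. It was highest on vehicle replicate 1 (2.24), digoxin replicate 4 (1.74) and vehicle replicate 2 (1.61). The median log2 change of the 7 atrial genes, digoxin minus vehicle, was -0.94. The 7 fibroblast genes had means of -0.042 to 0.18 in vehicle and -0.12 to 0.091 in digoxin hearts. None of 5 erythroid genes had a probe set with 1 symbol. Of the 33 marker genes measured, 1 passed the test, an atrial gene.

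Usp2, the protease of clock proteins and MDM2, had groups that did not overlap, and its difference was almost the same with and without vehicle replicate 3. Its centred log2 values were 0.14, 0.25, 0.30, 0.093 and 0.20 on digoxin replicates 1 to 5 and 0.091, -0.022 and 0 on vehicle replicates 1 to 3. Every digoxin array was above every vehicle array, but digoxin replicate 4 and vehicle replicate 1 were almost level. The mean was 0.20 ± 0.082 (SD, n = 5) after digoxin and 0.023 ± 0.060 (SD, n = 3) after vehicle, a log2 change of 0.17 (SE 0.057, 95% interval 0.044 to 0.30, limma adjusted p = 0.25), which is 1.13 times the vehicle level. Without vehicle replicate 3 it was 0.16 (SE 0.065, adjusted p = 0.345).

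Usp54 had the highest log2 change of the 55. Its values were 0.36, 0.27, 0.13, 0.37 and 0.18 after digoxin and 0.12, 0 and -0.32 after vehicle. The groups did not overlap, with digoxin replicate 3 and vehicle replicate 1 almost level, and vehicle replicate 3 lay far below the other vehicle arrays. The log2 change was 0.33 (SE 0.10, 95% interval 0.098 to 0.56, limma adjusted p = 0.213), and 0.20 (SE 0.077, adjusted p = 0.314) without vehicle replicate 3. A further probe set, annotated to both Usp54 and 1810062O18Rik and not used for either, had digoxin values of -0.081 to 0.40 and vehicle values of -0.47 to 0.21, which overlapped.

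Usp36 encodes a nucleolar deubiquitinase that acts on nucleolar proteins and on MYC. Its values were -0.077, 0, 0.017, 0.14 and -0.063 after digoxin and 0.23, 0.38 and -0.0073 after vehicle. Vehicle replicates 1 and 2 were above all digoxin arrays, and vehicle replicate 3 was among them. The log2 change was -0.19 (SE 0.087, 95% interval -0.39 to 0.0038, limma adjusted p = 0.416), and -0.30 (SE 0.070, adjusted p = 0.1) without vehicle replicate 3. Usp36 was the only member that passed under any of the alternatives tried. It did so with array weights, which count variable arrays less (-0.31, adjusted p = 0.0413; 1.44% of all genes were called lower in that fit and 2.77% in either direction), and with vehicle replicate 3 and digoxin replicate 4 both left out (-0.33, adjusted p = 0.0368; 1.27% lower and 2.25% in either direction), a pair of arrays picked once their values were known. The 3 arrays with the highest Usp36 values, vehicle replicates 1 and 2 and digoxin replicate 4, were also those with the highest atrial marker means, and the part of this in its value was not tested.

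**Figure D3:**
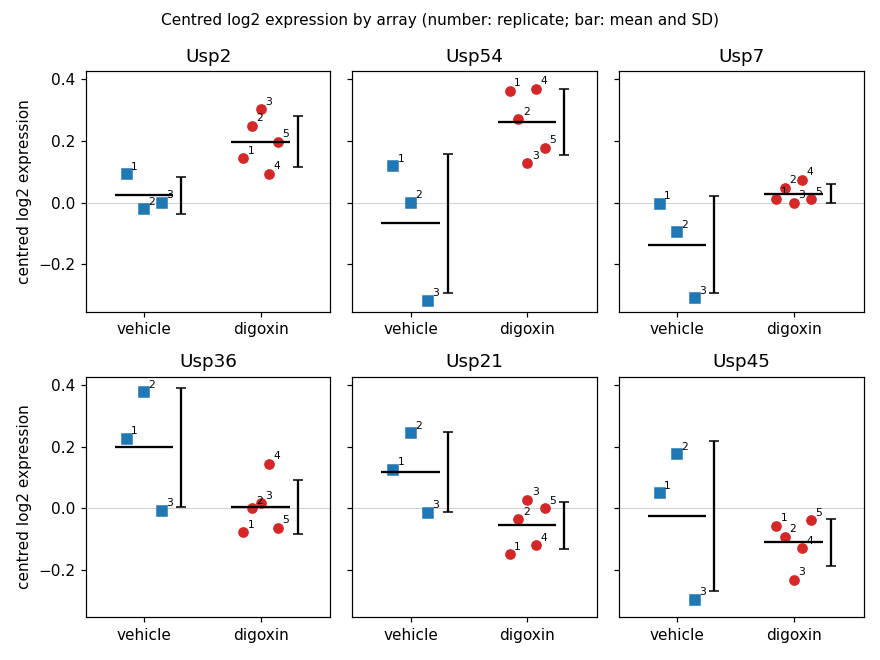
Centred log2 expression of 6 Usp genes on each array, with vehicle as blue squares, digoxin as red circles, the replicate number beside each point, and the mean and SD as black lines. Digoxin lies above vehicle without overlap in Usp2, Usp54 and Usp7, and vehicle replicates 1 and 2 lie above all digoxin arrays in Usp36, Usp21 and Usp45.

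Usp2 and Usp54 lay on the higher and Usp36 on the lower side, with and without vehicle replicate 3. Other members, Usp21 among them, also kept their side. As examples, chosen with their values known, the annotated promoter windows of Usp2, Usp54 and Usp36 are shown. They are from RefSeq, build GRCm38.p6, and run from 250 bases before to 50 after an annotated start, 5′ to 3′ on the strand of the gene. Only the Usp36 window lies at the 5′ end of its gene. The Usp2 start lies 17899 bases and the Usp54 start 26137 bases inside the gene span of the same build, so both are internal starts and the sequence at the gene's 5′ end is not shown. Which start is used in heart was not measured. That of Usp2 is chr9:44084670-44084969 (+ strand), that of Usp54 chr14:20618305-20618604 (- strand) and that of Usp36 chr11:118290195-118290494 (- strand). Capitals mark TGACGT, the core of the cAMP response element, which was searched on both strands after the sequences had been read.
Usp2: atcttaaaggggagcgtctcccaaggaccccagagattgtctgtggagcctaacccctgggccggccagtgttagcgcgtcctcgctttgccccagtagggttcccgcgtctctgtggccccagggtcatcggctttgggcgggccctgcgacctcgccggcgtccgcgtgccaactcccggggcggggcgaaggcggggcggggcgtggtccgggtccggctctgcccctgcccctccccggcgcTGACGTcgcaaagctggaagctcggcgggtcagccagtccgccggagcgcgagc
Usp54: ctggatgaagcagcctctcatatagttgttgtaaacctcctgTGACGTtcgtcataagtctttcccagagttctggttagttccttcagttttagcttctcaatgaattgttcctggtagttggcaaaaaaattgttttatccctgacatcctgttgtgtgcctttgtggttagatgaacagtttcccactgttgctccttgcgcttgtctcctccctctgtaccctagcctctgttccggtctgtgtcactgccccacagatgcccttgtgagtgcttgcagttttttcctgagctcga
Usp36: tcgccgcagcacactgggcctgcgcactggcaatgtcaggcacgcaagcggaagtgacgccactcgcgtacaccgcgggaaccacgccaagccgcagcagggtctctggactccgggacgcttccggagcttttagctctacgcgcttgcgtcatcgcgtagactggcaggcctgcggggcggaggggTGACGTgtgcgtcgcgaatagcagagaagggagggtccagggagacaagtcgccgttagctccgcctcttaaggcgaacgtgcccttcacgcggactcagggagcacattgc
The G and C content was 71.7% in the Usp2 window, 46.7% in that of Usp54 and 65% in that of Usp36, and because the starts are of different kinds these are not compared. Of the 44 member windows, 9 start more than 1000 bases from the 5′ end of the gene. The median G and C content over the 44 member windows, which cover 43 members, was 64%, against 52.7% over all 32851 windows. TGACGT was found once in each of the 3 windows, in 7 of the 44 member windows (Usp2, Usp8, Usp11, Usp29, Usp36, Usp38 and Usp54), and in 7.51% of all windows, and these members had log2 changes on both sides of 0. The E-box CACGTG was found in the windows of Usp4, Usp6nl, Usp16, Usp31 and Usp32 (7.15% of all windows) and not in that of Usp2. The glucocorticoid receptor palindrome, GNACA and TGTNC with 3 bases between (0.475% of all windows), the D-box TTATGTAA (0.938%) and the REV-ERB and ROR element core TAGGTCA (2.61%), also searched on both strands, were in 0 of the 44 windows. A match is a description of these letters in this window and no evidence of binding.

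Among members of the nucleus, of chromatin and of the p53 axis, Usp7 was the third whose groups did not overlap. Usp7 acts on MDM2 and p53, and its values were 0.011, 0.048, 0, 0.073 and 0.011 after digoxin and -0.0047, -0.097 and -0.31 after vehicle. The digoxin arrays lay close together. Vehicle replicate 1 was almost level with the lowest of them, digoxin replicate 3, and vehicle replicates 2 and 3 lay further below. The log2 change of Usp7 was 0.17 (SE 0.066, adjusted p = 0.355 in limma), and 0.079 (adjusted p = 0.542 in limma) without vehicle replicate 3. Usp21, which acts on histones, had values of -0.15, -0.035, 0.028, -0.12 and 0 after digoxin and 0.12, 0.24 and -0.015 after vehicle. Its log2 change was -0.17 (SE 0.068, adjusted p = 0.346 in limma), and -0.24 (adjusted p = 0.133 in limma) without vehicle replicate 3. As in Usp36, vehicle replicates 1 and 2 stood above every digoxin array and vehicle replicate 3 among them.

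The histone deubiquitinase gene Usp16 had values of 0.13, 0.15, 0.14, -0.012 and 0.21 after digoxin and 0, -0.0069 and -0.36 after vehicle, with a log2 change of 0.25 (SE 0.089). Usp49, which also acts on histones, had 0.24, 0.23, 0.027, 0.0071 and 0.11 against 0.019, 0 and -0.40, with a log2 change of 0.25 (SE 0.10). Level with vehicle replicates 1 and 2 were only digoxin replicate 4 in Usp16, and digoxin replicates 3 and 4 in Usp49. Vehicle replicate 3 was lowest in both genes, and without that array the changes were 0.13 and 0.11. Usp51, another histone deubiquitinase gene, had 0.012, -0.022, -0.012, -0.086 and 0.018 after digoxin and -0.11, 0.22 and 0.16 after vehicle, so its vehicle arrays lay on both sides of the digoxin arrays (log2 change -0.11, SE 0.073). Of the 12 members in this group 7 had higher and 5 lower means, and the median log2 change was 0.031, while without vehicle replicate 3 there were 6 and 6 and the median was -0.00054. The others lay between -0.024 (Usp10, which acts on p53 in the cytoplasm) and 0.18 (Usp3). Usp22, the deubiquitinase of the SAGA coactivator complex, stood at 0.094.

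Of the 3 genes whose enzymes act on ubiquitin chains or at the proteasome, Usp14 stood highest. It encodes the protease bound to the proteasome's regulatory particle, and its values were 0.083, 0.14, 0.067, -0.021 and 0.096 after digoxin and 0.047, -0.031 and -0.60 after vehicle. The groups overlapped, and vehicle replicate 3 alone was far from 0. Its log2 change was 0.27 (SE 0.13), and 0.066 without that array. Usp5, which takes apart free ubiquitin chains, stood at 0.12 (SE 0.059) and its paralogue Usp13 at 0.020 (SE 0.058).

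Usp1, Usp12 and Usp46 encode proteases that need the activator WDR48. Usp1, known for the deubiquitination of DNA repair proteins, had values of -0.12, 0, 0.014, 0.13 and -0.096 after digoxin and -0.041, -0.099 and -0.68 after vehicle, and the value of -0.68 was the lowest of any member on any array. Its log2 change of 0.26 (SE 0.14) was 0.055 without vehicle replicate 3. Usp12 stood at 0.056, over probe sets that differed (0.15 and -0.039), and Usp46 at -0.024 over 3 probe sets between -0.056 and 0.0023. Wdr48 itself stood at 0.20 (SE 0.096, adjusted p = 0.457 in limma), and at 0.066 without vehicle replicate 3. Wdr20, a further activator of Usp12 and Usp46, stood at -0.24 (SE 0.11, adjusted p = 0.422), and without vehicle replicate 3 at -0.40 (SE 0.060, adjusted p = 0.0206 in limma, where 0.852% of all genes were called lower). Its values were -0.18, 0, -0.061, -0.15 and -0.001 after digoxin and 0.33, 0.31 and -0.15 after vehicle, the same arrangement of vehicle arrays as in Usp36 and Usp21. Vehicle replicate 3, the array left out, lay among the digoxin arrays, so the call of Wdr20 rests on vehicle replicates 1 and 2 alone.

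In the group of endosome, trafficking, endoplasmic reticulum and mitochondria, 7 of 8 members had higher means (44.4% of all genes) and the median log2 change was 0.082. Without vehicle replicate 3 there were 4 higher and 4 lower, with a median of 0.0042. Usp32, a protease of endosomes and lysosomes, had values of 0.062, -0.018, 0.17, 0.0028 and 0.090 after digoxin and -0.12, 0.0085 and -0.43 after vehicle. Its groups overlapped at vehicle replicate 2, and the log2 change of 0.24 (SE 0.094) was 0.12 without vehicle replicate 3. Usp8, which acts on endocytosed receptors, stood at 0.20, and 0.050 without that array. Usp30, the deubiquitinase of the mitochondrial outer membrane that opposes mitophagy, stood at 0.0027 (95% interval -0.12 to 0.12). Usp19, which has a form anchored in the endoplasmic reticulum and is known for its rise in wasting muscle, stood at -0.010 (95% interval -0.14 to 0.12). The X-linked Usp9x stood at 0.079 and its Y-linked partner Usp9y at 0.034.

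The paralogues Usp4, Usp11 and Usp15 had log2 changes of 0.023, 0.081 and 0.17. Usp15, which acts in TGF-beta signalling, had digoxin values of -0.024 to 0.027 and vehicle values of -0.36 to -0.013, and its change was 0.066 without vehicle replicate 3. Usp11 had a within-group spread that exceeded its change, with digoxin values of -0.11 to 0.43. The paralogues Usp25 and Usp28 stood at 0.028 and 0.10. Besides Usp54, the members listed with no or impaired activity were Usp39, a splicing factor, at 0.13, Usp50 at 0.060 and Usp53 at 0.020.

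At the lower end, the copies of Usp17l did not move together. Usp17la had the lowest log2 change of the family, -0.23 (SE 0.086, adjusted p = 0.326 in limma), with values of -0.024, 0, 0.14, -0.20 and 0.015 after digoxin and 0.34, 0.050 and 0.25 after vehicle, where vehicle replicate 2 lay among the digoxin arrays. Usp17ld stood at -0.11 (SE 0.14), with values of 0, 0.079, 0.040, -0.13 and -0.34 after digoxin and -0.28, 0.065 and 0.35 after vehicle. The vehicle arrays alone spanned more than all digoxin arrays. Usp17le stood at 0.091, Usp17lb at -0.048 and Usp17lc at 0.0034, and because these copies may share RNA on the array, each value is uncertain. Usp35 had -0.053, 0, 0.026, 0.026 and -0.12 after digoxin and -0.048, 0.11 and 0.38 after vehicle, and its log2 change of -0.17 (SE 0.088) was -0.053 without vehicle replicate 3, which was the highest array here.

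Usp45, which acts on a DNA repair nuclease, was singled out after its values were seen. Its values were -0.057, -0.093, -0.23, -0.13 and -0.039 after digoxin and 0.048, 0.17 and -0.30 after vehicle, so vehicle replicates 1 and 2 stood above all digoxin arrays and replicate 3 below them. The log2 change was -0.085 (SE 0.099), and -0.22 (SE 0.063, adjusted p = 0.164 in limma) without vehicle replicate 3. The 3 members with a p under 0.05 and a lower mean in that fit were Usp21, Usp36 and Usp45, and the 2 with a higher mean were Usp2 and Usp54. The members whose log2 change is not given above, Usp6nl, Usp24, Usp26, Usp27x, Usp29, Usp31, Usp33, Usp34, Usp37, Usp38, Usp40, Usp42, Usp43, Usp44, Usp47, Usp48 and Usp20, lay between -0.054 (Usp26) and 0.20 (Usp38), and each had overlapping groups. Usp43 stood at -0.032 over probe sets on both sides of 0 (-0.13 and 0.066). Leaving out Usp6nl and the Usp17l copies, the median over the other 49 members was 0.060.

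**Figure D4:**
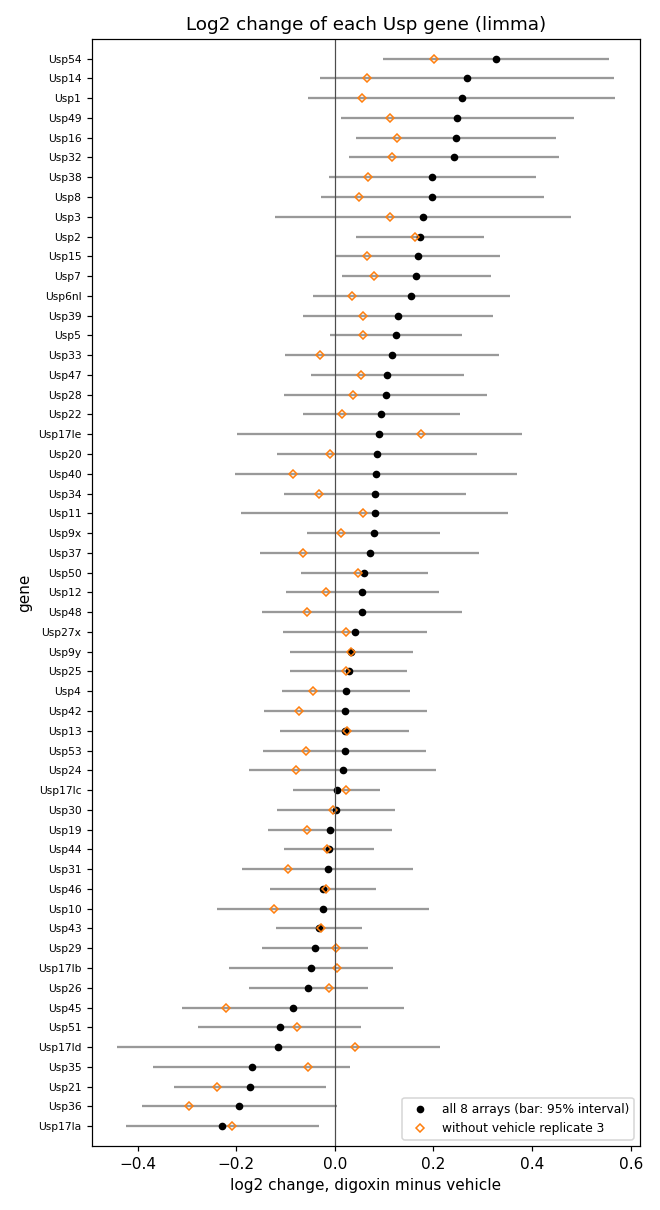
Log2 change of each of the 55 Usp genes, digoxin minus vehicle, from limma with all 8 arrays (black points, with 95% intervals as grey bars) and without vehicle replicate 3 (open orange diamonds). For most genes in the upper part, such as Usp14 and Usp1, the diamond lies much closer to 0 than the point, while in Usp2 both lie near 0.17 and 0.16 and in Usp36 the diamond lies further from 0.

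Deubiquitinases of other families also held no gene past the test. Of 33 measured genes of the UCH, OTU, Josephin, JAMM, MINDY and ZUFSP families, 0 passed in limma, against 1.36% of all genes. At an unadjusted p under 0.05, 6 had a higher and 1 a lower mean (6.32% and 5.99% of all genes). The groups did not overlap in 4 with digoxin above and 1 with digoxin below (4.4% and 3.76%). Without vehicle replicate 3, 5 had a higher and 2 a lower mean at that p (5.28% and 7.33%). The groups then did not overlap in 4 with digoxin above and 4 below (7.24% and 9.16%). Their median log2 change was 0.10, and 0.037 without vehicle replicate 3. The largest change was that of Mysm1, a histone deubiquitinase gene, at 0.45 (SE 0.14, adjusted p = 0.23 in limma), which was 0.26 without vehicle replicate 3. Mindy3 stood at 0.30 (SE 0.071, adjusted p = 0.105) and Otulin, the protease of linear ubiquitin chains, at 0.23 (SE 0.070, adjusted p = 0.202). Without vehicle replicate 3 they stood at 0.21 (adjusted p = 0.109 in limma) and 0.23 (adjusted p = 0.271). Josd1 stood at -0.14 (adjusted p = 0.637 in limma), and at -0.29 (adjusted p = 0.0515) without that array. Of 3 relatives of the family with other symbols, Cyld stood at 0.085, Uspl1 at 0.088 and Pan2 at 0.017. None of 12 cofactors passed with all arrays (1.36% of all genes). The largest positive change was that of Gmps, a partner of Usp7, at 0.32 (SE 0.11, adjusted p = 0.27), which was 0.17 without vehicle replicate 3. Of 6 ubiquitin and E1 genes, only Uba6 had a probe set with 1 symbol, and it stood at -0.0051.

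The list of substrates of Usp2 and Usp7 had 8 measured members of 10, and 0 passed (1.36% of all genes). Its median log2 change was 0.14, and 0.093 without vehicle replicate 3. The largest changes were those of Per1 (0.63, adjusted p = 0.0659 in limma) and Arntl (0.51, adjusted p = 0.0693), clock genes whose proteins are reported to interact with USP2. In both, every digoxin array was above every vehicle array (4.4% of all genes). This held without vehicle replicate 3 (7.24% of all genes), where Per1 stood at 0.45 (adjusted p = 0.0578 in limma) and Arntl at 0.53 (adjusted p = 0.105). Cry1, the other clock gene of the list, stood at -0.050 (adjusted p = 0.849), and at -0.15 (adjusted p = 0.375) without that array. Its groups then did not overlap, with digoxin lower (9.16% of all genes). Ccnd1, the gene of cyclin D1, stood at 0.19 (adjusted p = 0.453), Mdm4 at 0.094 and Mdm2 at 0.024 (95% interval -0.21 to 0.26), and without vehicle replicate 3 Mdm4 stood at -0.069 and Mdm2 at -0.11. These are RNA values, and the stability of the proteins was not measured.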

How the data were processed

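Hearts of 8 mice were measured on Affymetrix Mouse Gene 2.0 ST arrays. Per the series design text, the authors made the deposited log2 values by Robust Multi-array Average in Galaxy. The submitters' processing notes also list limma, and no version is given in the sources used here. They are centred for each probe set on a reference that is not stated (column medians -0.0058 to 0.0087), so the log base is taken from the method, direction is as deposited, and no filter on dim probes or signal over background is possible. Of 34351 probe sets, 23521 had 1 symbol in the platform annotation, 1814 had several and 9016 none; the mean over probe sets with 1 symbol gave 22180 genes. The contrast of digoxin minus vehicle was fitted in R 4.3.3 by limma 3.58.1 (lmFit, eBayes, no covariate, two-sided, threshold 0.05 after Benjamini-Hochberg adjustment over every gene; 6 residual and 2.75 prior degrees of freedom). The fit was tested on simulated data in which a gene had the same spread on every array, unlike the wider vehicle replicate 3. It recovered 24% of the genes changed by 0.25 on the log2 scale and 72% of those changed by 0.5. Changes of the size seen in most members would thus often go uncalled. The number of arrays limits the precision. The labels number the samples separately but do not name the animals, so a p-value reflects only variation among these arrays. The array numbers in the sample descriptions place all vehicle arrays before the digoxin arrays, so that order and treatment cannot be told apart.

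The members and all gene lists were chosen with earlier results of these data known. Values on every array are given for the 6 highest and the 6 lowest log2 changes among members and for members whose groups did not overlap. Alternatives were quantile normalization, centring of arrays, robust eBayes, array weights, each probe set on its own, genes with 1 probe set, the replicate number as a block, a threshold of 0.1, and each array left out. Added after seeing the data were the removal of vehicle replicate 3 with digoxin replicate 4, and of Usp6nl and the Usp17l copies. The fits with each array left out were planned, and that without vehicle replicate 3 was followed further once its values were known. Promoter windows were matched by symbol for 43 of 55 members.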

Additional observations from a re-analysis of the deposited data

Results flagged for a closer look

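In 3 of 55 members, 1 of the 5 digoxin arrays stood apart from the other 4 by more than 0.71 of the range of the group, and chance gives about 1 in 20 such groups. Usp3, the gene of a histone deubiquitinase, was at 0.57 on digoxin replicate 4 against 0 to 0.061 on the other digoxin arrays. Usp13 was at -0.18 on the same array against -0.019 to 0.025. Usp9y was at 0.19 on digoxin replicate 2 against -0.017 to 0.013.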

How the results depend on the processing

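No member was called in the Usp family under 16 of the 18 settings compared, those with all arrays, with a threshold of 0.1 and with each array left out included. The exceptions were array weights and the removal of vehicle replicate 3 with digoxin replicate 4, where 1 member, Usp36, was called lower (-0.31 and -0.33). Over all genes, 302 were called with all arrays (210 higher, 92 lower), 614 with array weights (320 lower), 500 without those 2 arrays (282 lower), 493 at a threshold of 0.1 (327 higher, 166 lower), 319 higher with quantile normalization, and 166 to 374 with 1 array left out (123 to 185 higher, 29 to 189 lower). The replicate number as a block, over numbers 1 to 3, left 12 calls (11 higher, 1 lower) and 0 members. It drops digoxin replicates 4 and 5. Deviations of same-numbered arrays correlated at -0.20, -0.018 and 0.024 over genes. The descriptions number the same arrays in another order than the titles used here, so these correlations cannot decide whether any arrays were paired. In the block fit Usp10 stood at 0.00026. The median over members stayed between 0.012 and 0.091 under these alternatives. Of the 55 members, 27 kept the sign of their log2 change under these alternatives, in which a gene with several probe sets was also given that of lowest p, and 28 did not, all of them uncalled. Usp43, among the 27, has another probe set of opposite sign (0.066). With 1 array left out, the values of those that changed sign ranged as follows, Usp10 -0.12 to 0.037, Usp12 -0.018 to 0.094, Usp13 -0.015 to 0.056, Usp17lb -0.092 to 0.0036, Usp17lc -0.012 to 0.022, Usp17ld -0.28 to 0.040, Usp17le -0.093 to 0.19, Usp19 -0.057 to 0.049, Usp20 -0.0097 to 0.16, Usp24 -0.080 to 0.070, Usp29 -0.060 to 0.0015, Usp30 -0.020 to 0.030, Usp31 -0.095 to 0.035, Usp33 -0.029 to 0.19, Usp34 -0.031 to 0.15, Usp37 -0.065 to 0.17, Usp4 -0.044 to 0.074, Usp40 -0.085 to 0.19, Usp42 -0.072 to 0.099, Usp44 -0.022 to 0.0031, Usp45 -0.22 to 0.014, Usp46 -0.039 to 0.00031, Usp48 -0.056 to 0.15, Usp53 -0.059 to 0.084 and Usp9y -0.0047 to 0.046. Sign changes with array weights were Usp24 at -0.047, Usp33 at -0.0048, Usp37 at -0.069, Usp4 at -0.036, Usp40 at -0.000091, Usp42 at -0.028, Usp48 at -0.016 and Usp53 at -0.066. With quantile normalization they were Usp24 at -0.024, Usp4 at -0.0069, Usp42 at -0.022, Usp48 at -0.0016 and Usp53 at -0.020. Without vehicle replicate 3 and digoxin replicate 4 they were Usp11 at -0.017, Usp12 at -0.00023, Usp17ld at 0.054, Usp24 at -0.041, Usp26 at 0.014, Usp27x at -0.0015, Usp29 at 0.013, Usp33 at -0.032, Usp34 at -0.029, Usp37 at -0.090, Usp4 at -0.038, Usp40 at -0.032, Usp42 at -0.076, Usp46 at 0.0069, Usp48 at -0.082 and Usp53 at -0.067. The cause of these changes was not tested. Centring limits what can be said of signal over background, and 3 vehicle arrays limit every interval.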
